A study of Mus musculus with 2 samples.

Results

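The genes described here encode the enzymes that build and desaturate fatty acids in the cytosol and endoplasmic reticulum, together with a small protein linked to the same pathway. They were taken by gene name from both deposited tables, and all 10 names (Acly, Acaca, Acacb, Fasn, Elovl6, Scd1, Scd2, Fads1, Fads2 and Thrsp) were found among 26082 genes. FAPs (fibro-adipogenic progenitors) are stromal cells of skeletal muscle that can become adipocytes. Primary mouse FAPs, with a genotype labelled WT, received either a plasmid for overexpression of TGFBR3 or the vector alone. Both cultures were labelled as under adipogenic differentiation, for which the labels give a medium with insulin (10 μg/ml), dexamethasone (0.25 μM), IBMX (0.5 mM) and serum (FBS, 20%). Each condition was represented by 1 library, named here the TGFBR3-labelled and the vector-labelled library. Strain, age and number of the mice behind each culture are not given in the labels, and no difference below has a replicate check. The comparison asks how transcripts of fatty acid synthesis differed when TGFBR3 was to be overexpressed during adipogenic induction.

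Poly(A)-selected RNA was sequenced with paired reads of 150 nt, and the deposited counts summed to 62321027 in the TGFBR3-labelled library and 83779203 in the vector-labelled one. Tgfbr3 itself, which encodes a co-receptor for TGF-β ligands, had FPKM values of 36.9 and 35.1, respectively. FPKM is the count of a gene scaled by its length and by a library total. The log2 ratio of (FPKM + 1) for Tgfbr3 was 0.07 (95% CI 0.04 to 0.10), below the median of 0.13 over the 10626 genes that reached an FPKM of 1 in each library. Since the targeted gene did not stand above the typical gene, each direction below refers to the labels and not to a measured rise of Tgfbr3.

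De novo synthesis starts in the cytosol, where ATP citrate lyase (Acly) cleaves citrate to acetyl-CoA. Acetyl-CoA carboxylases (Acaca, Acacb) turn acetyl-CoA into malonyl-CoA, and fatty acid synthase (Fasn) condenses these units into palmitate. Palmitate is elongated by Elovl6 and desaturated by stearoyl-CoA desaturases (Scd1, Scd2), while Fads1 and Fads2 desaturate dietary polyunsaturated fatty acids. Thrsp, also named Spot 14, is a small protein of lipogenic tissues whose expression follows that of the pathway. Transcription of most of these genes is known to be driven by SREBP-1, with LXR and ChREBP as further activators, and the set is known to be strongly induced as preadipocytes become adipocytes.

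In the GENCODE annotation of mm10, all 10 genes are protein coding. Scd1 (ENSMUSG00000037071, minus strand, 44394455 to 44407879) and Scd2 (ENSMUSG00000025203, plus strand, 44293674 to 44306864) lie on chromosome 19, separated by 87.6 kb. Fads2 (ENSMUSG00000024665, 10062765 to 10101746) and Fads1 (ENSMUSG00000010663, 10182888 to 10196877) are neighbors on the same chromosome. Chromosome 11 carries Acaca (ENSMUSG00000020532, 84129672 to 84401651), Acly (ENSMUSG00000020917, 100476353 to 100528000) and Fasn (ENSMUSG00000025153, 120805846 to 120824547). Acacb (ENSMUSG00000042010) lies on chromosome 5 from 114146535 to 114250761, Elovl6 (ENSMUSG00000041220) on chromosome 3 from 129532355 to 129638495, and Thrsp (ENSMUSG00000035686) on chromosome 7 from 97412938 to 97417730. Of the 31-base words in Acaca transcripts, 33.4% also occur in other genes, mainly in the processed pseudogene Gm5182, which had 476 counts in the TGFBR3-labelled library and 621 in the other. Scd1 and Scd2 share 8.14% and 6.81% of their words with other genes, chiefly with Scd paralogs. For the other 7 genes the share was between 0% and 6.41%, so that reads split between copies are a matter mainly for Acaca.

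RefSeq promoter windows, from 250 bases before to 50 after the start, were matched for 7 of the genes (Acly, Acaca, Acacb, Fasn, Elovl6, Fads2 and Thrsp). The windows of Acly and Fasn are printed up to the base before the start, because these enzymes open and complete the route to palmitate and their start is the same in both annotations. Capitals mark the NF-Y box CCAAT and the GC box GGGCGG, searched on both strands. For Acly the region is chr11:100528001-100528250 and for Fasn chr11:120824548-120824797, both on the minus strand of GRCm38.p6 and written 5′ to 3′.

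Acly: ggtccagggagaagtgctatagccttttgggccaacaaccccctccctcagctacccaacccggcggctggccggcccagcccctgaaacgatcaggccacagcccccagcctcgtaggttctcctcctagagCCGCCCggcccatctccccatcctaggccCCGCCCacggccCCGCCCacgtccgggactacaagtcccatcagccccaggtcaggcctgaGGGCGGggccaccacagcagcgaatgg

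Fasn: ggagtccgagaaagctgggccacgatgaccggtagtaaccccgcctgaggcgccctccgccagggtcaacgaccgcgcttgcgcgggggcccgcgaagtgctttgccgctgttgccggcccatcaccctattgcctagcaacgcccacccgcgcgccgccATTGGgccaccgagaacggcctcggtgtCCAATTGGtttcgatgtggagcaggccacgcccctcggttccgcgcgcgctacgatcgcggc

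The Acly window held GC boxes whose first base lies at −117, −88, −76 and −27 from the start. In the Fasn window NF-Y boxes began at −90, −62 and −59, the last pair overlapping on opposite strands. Among all 32851 promoter windows of this length, 37.4% held an NF-Y box and 35.7% a GC box. At least 1 NF-Y box was found in 4 of the 7 windows (Fasn, Acacb, Thrsp and, at 38 after the start and so not printed, Acly) and a GC box in 2 (Acly and Fads2). The sterol response element TCACNCCAC, present in 1.24% of all windows, and the E-box CACGTG, present in 7.15%, were in none of the 7. The RefSeq starts of Acaca and Acacb lie 65.8 and 19.0 kb inside the genes as GENCODE draws them, so their windows do not describe the first promoter of either gene. These matches describe letters only.

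Across the 10 genes, transcripts of 9 were lower in the TGFBR3-labelled library, and Acacb was the exception. Scd1, Fads2 and Scd2 stood furthest below the vector-labelled library among the abundant transcripts. Thrsp was nearly absent from the TGFBR3-labelled library, while Acly had the ratio closest to 0. The median log2 ratio of (FPKM + 1) was −0.29, beside 0.14 for the 11213 genes whose FPKM averaged 1 or more over both libraries, called expressed genes below. Restricted to that level, 7 of 8 of the genes had a ratio below 0, where 36.7% of all such genes did. At least 2-fold differences of (FPKM + 1) were found for none of the 10, higher or lower, against 1.56% and 0.526% of the 23590 genes with a count. The added 1 hides the change of scarce transcripts, so the plain ratio, computed from the counts for genes with more than 3 in both libraries, is given as well. By the plain ratio Acacb was past 2-fold higher and Thrsp past 2-fold lower, on a background of 13.4% and 4.22% of 17985 genes. Intervals are exact 95% Clopper-Pearson intervals that cover counting error only. They were narrow at this depth, and the interval lay wholly below the median gene for 7 of the 8 better expressed genes, as it did for 41.1% of all genes of that level.

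**Figure D1:**
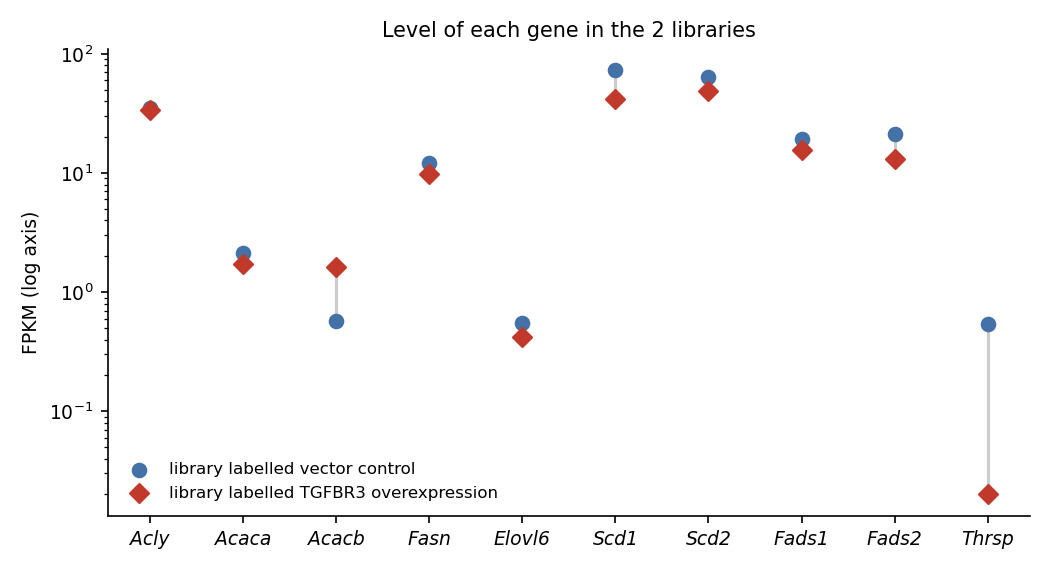
FPKM of each gene in the library labelled vector control (blue circles) and in the library labelled TGFBR3 overexpression (red diamonds), 1 library each, on a log axis, with a gray line joining both values. Acacb is the one gene whose red point lies above the blue point, and Thrsp has the longest line, from 0.54 down to 0.02.

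The order of levels, which FPKM allows to be compared between genes, was led by the stearoyl-CoA desaturases and Acly in both libraries. In the vector-labelled library Scd1 (72.6) stood above Scd2 (64.2), Acly (34.9), Fads2 (21.2), Fads1 (19.3) and Fasn (12.2). Acaca followed at 2.14. Acacb (0.57), Elovl6 (0.55) and Thrsp (0.54) could not be separated there, since their exact Poisson intervals overlapped (0.52 to 0.62, 0.49 to 0.61 and 0.44 to 0.65). In the TGFBR3-labelled library Scd2 (48.4) exceeded Scd1 (42.1), Fads1 (15.7) exceeded Fads2 (13.1), and Acacb (1.61) reached the level of Acaca (1.71), with overlapping intervals of 1.51 to 1.71 and 1.64 to 1.79. Among all 26082 genes Scd1 ranked 663rd by FPKM in the vector-labelled library and 1183rd in the other. The summed FPKM of the 10 genes was 166 against 228, which is 27.0% lower in the TGFBR3-labelled library.

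Acly, which supplies cytosolic acetyl-CoA, had FPKM values of 33.8 in the TGFBR3-labelled library and 34.9 in the vector-labelled one, from 12098 and 17042 counts. At −0.05 (95% CI −0.08 to −0.01) on the log2 scale, it was the closest to 0 of the 10, although it reached −0.17 when centred on the median gene and −0.29 with median-of-ratios size factors. Fasn, the multidomain synthase, stood at 9.72 and 12.2, and its log2 ratio of −0.30 (95% CI −0.34 to −0.27) corresponds to a plain level 1.26-fold lower. Acaca, the cytosolic carboxylase that makes malonyl-CoA for synthesis, stood at 1.71 and 2.14, or −0.21 on the log2 scale (95% CI −0.26 to −0.16). Both were thus lower than in the vector-labelled library, and by more than Acly. After correction for GC content Fasn was at −0.17 and Acly at −0.12, so that little of their difference remained. Other settings kept it, with Fasn at −0.56 and Acly at −0.23 when the length trend was removed. With median-of-ratios size factors Fasn was at −0.54 and Acly at −0.29. Acaca went the other way under the GC correction, to −0.50, further below Acly. GC-rich genes had lower ratios in general, from a median of 0.45 in the bin of lowest GC content to −0.25 in the highest.

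Acacb encodes the carboxylase bound to mitochondria, whose malonyl-CoA is known to restrain the entry of fatty acids into oxidation. It had 1057 counts in the TGFBR3-labelled library and 504 in the vector-labelled one, which correspond to FPKM values of 1.61 and 0.57. On the log2 scale Acacb was at 0.73 (95% CI 0.67 to 0.81), and by the plain ratio it was 2.86-fold higher (95% CI 2.57 to 3.18). A higher plain ratio was found for 244 of the 11213 expressed genes. This direction is opposite to that of the other 9 genes, and none of the Acacb exons overlaps an exon of another gene. Summed, Acaca and Acacb gave an FPKM of 3.32 against 2.71. Cpt1b, the muscle-type carnitine palmitoyltransferase that malonyl-CoA inhibits, was also higher, with 226 counts against 90 and a log2 ratio of 0.62. It was scarce, with FPKM values of 0.98 and 0.29. The related Cpt1a (27.23 and 20.45, log2 ratio 0.40) and Cpt1c (17.19 and 14.17, log2 ratio 0.26) were more abundant.

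Elovl6, which elongates palmitate to stearate, was scarce in both libraries. Its counts were 184 and 326, its FPKM 0.42 and 0.55, and the ratio on the log2 scale was −0.13 (95% CI −0.21 to −0.04). The plain ratio was −0.38, with a counting interval of −0.65 to −0.11, wider than for any gene of the set but Thrsp.

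Scd1, which puts the first double bond into stearate and palmitate, had 13969 counts in the TGFBR3-labelled library and 32814 in the vector-labelled one. Its FPKM values were 42.1 and 72.6, which gave a log2 ratio of −0.77 (−0.80 to −0.74). Among expressed genes, 262 stood lower than Scd1. Its value reached −1.02 with median-of-ratios size factors, so that Scd1 then passed 2-fold, as it also just did after correction for GC content. Scd2, the paralog of Scd1, was lower too, at 48.4 against 64.2 and a log2 ratio of −0.40 (95% CI −0.43 to −0.37). The stearoyl-CoA desaturases together gave a summed FPKM of 90.5 against 137.

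Fads2, the desaturase that begins the conversion of essential polyunsaturated fatty acids, was counted 2917 and 6447 times, at an FPKM of 13.1 against 21.2. It stood at −0.66 on the log2 scale (95% CI −0.72 to −0.60), lower than 10806 of the 11213 expressed genes. Fads1, which acts at a later step of the same conversion, differed less, at 15.7 against 19.3, or −0.28 on the log2 scale (95% CI −0.33 to −0.23). Their sum was 28.7 against 40.4. Over all 4 desaturases the summed FPKM was 32.7% lower in the TGFBR3-labelled library, while the sum over Acly, Acaca, Acacb and Fasn was 6.14% lower. The latter sum was mostly Acly (33.8 of 46.8 in the TGFBR3-labelled library) and includes Acacb, which was higher. By the plain ratio Fasn and Acaca were at 0.79 and 0.80 of the vector-labelled level, near Fads1 at 0.81.

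Thrsp was counted 4 times in the TGFBR3-labelled library and 110 times in the vector-labelled one. Its FPKM of 0.02 against 0.54 gave a log2 ratio of −0.59 with the added 1. By the plain ratio it was 20.2-fold lower, with a counting interval from 7.67 to 75.4. The width of that interval reflects the 4 counts. It covers counting error only, so with 1 library per condition the size of the difference is less certain than the interval shows. Mid1ip1, which encodes the paralogous protein, did not share the direction and had FPKM values of 11.9 and 9.03 (log2 ratio 0.37).

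**Figure D2:**
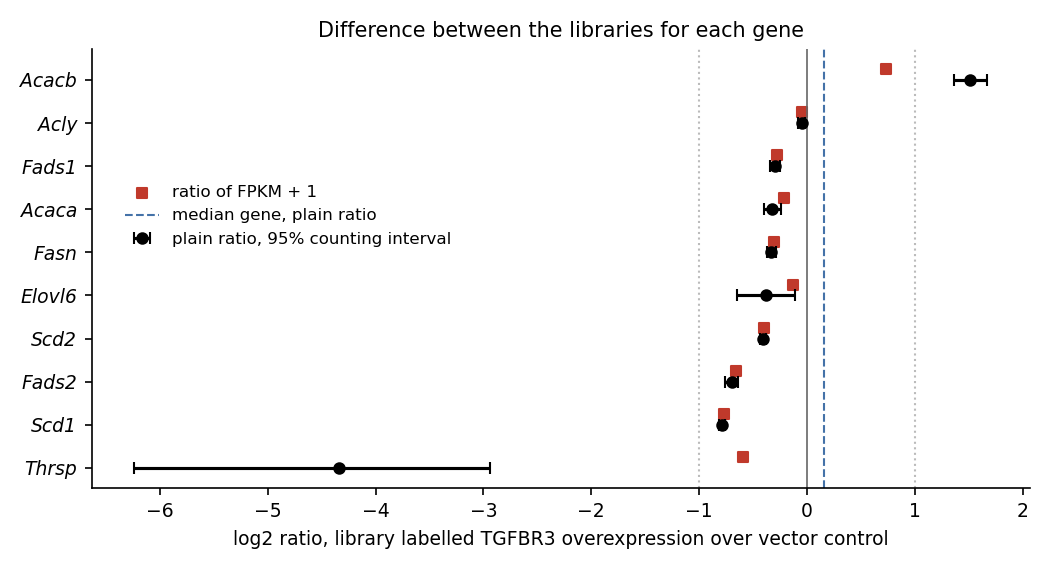
Ratio on the log2 scale of the TGFBR3-labelled over the vector-labelled library for each gene: black points are plain ratios with exact 95% counting intervals, red squares are ratios of FPKM + 1. The solid line is no difference, the dashed line the median gene by the plain ratio (0.15), and the dotted lines 2-fold. Thrsp (−4.34) and Acacb (1.51) lie outside the dotted lines by the plain ratio only.

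Ratios between genes of the same library do not depend on the scaling between libraries, although they do depend on the trend over GC content. Scd1 was 1.13 times as abundant as Scd2 in the vector-labelled library and 0.87 times in the TGFBR3-labelled one, a change of the ratio by a factor of 0.77 (95% CI 0.75 to 0.79, a large-sample interval on the counts), or 0.72 corrected for GC content. Fads2 relative to Fads1 went from 1.10 to 0.83, a factor of 0.76 (95% CI 0.72 to 0.80), or 0.80 corrected. The ratio of Scd1 to Fads2 was 3.43 and 3.23, a factor of 0.94 (95% CI 0.90 to 0.99) that became 0.80 when corrected. Acacb relative to Acaca was 0.27 and 0.94, a factor of 3.57 (95% CI 3.17 to 4.02), or 4.65 corrected. Fasn relative to Acly was 0.35 and 0.29, a factor of 0.82 (95% CI 0.79 to 0.85) that became 0.94 when corrected. Scd1 and Scd2 made up 60.0% of the summed FPKM of the 10 genes in the vector-labelled library and 54.4% in the TGFBR3-labelled one.

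**Figure D3:**
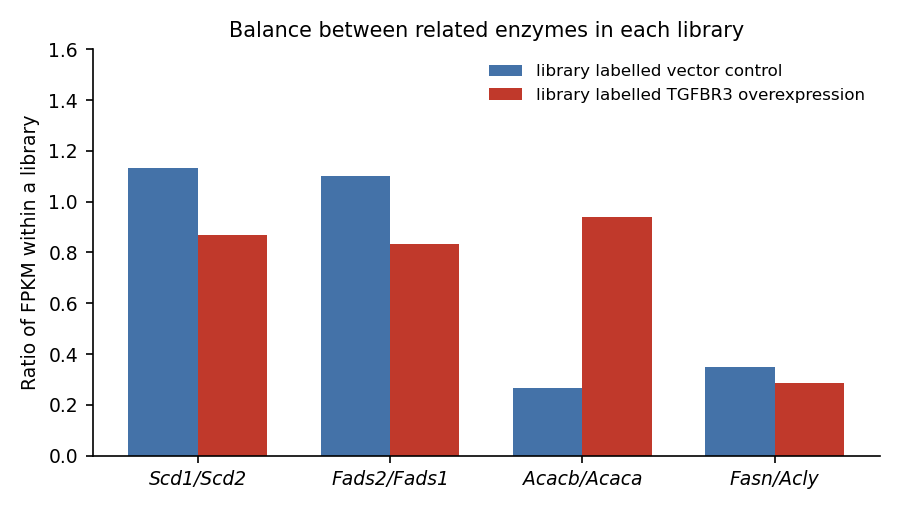
Ratio of the FPKM of related enzymes within each library, 1 library per bar and therefore without error bars. Scd1/Scd2 and Fads2/Fads1 are above 1 in the vector-labelled library (blue) and below 1 in the TGFBR3-labelled one (red), while Acacb/Acaca is higher in the latter.

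The regulators of the pathway, a list of 18 genes from general knowledge, had a median log2 ratio of −0.01. Of these, 9 were above and 9 below 0, and none was past 2-fold with the added 1. Among expressed genes, 36.7% were below 0. By the plain ratio both genes of the catalytic AMPK subunits were past 2-fold higher, Prkaa1 at 1.07 and Prkaa2 at 1.63 (279 and 123 counts). Of all 17985 genes with a plain ratio, 13.4% were past 2-fold higher. With the added 1, Prkaa2 was at 0.38, which turned to −0.06 after correction for GC content. Srebf1, which encodes the main lipogenic activator SREBP-1, had FPKM values of 14.5 in the TGFBR3-labelled library and 19.9 in the vector-labelled one. Its log2 ratio was −0.43 (95% CI −0.47 to −0.39), or −0.30 corrected for GC content. Srebf2, whose product drives cholesterol synthesis, was lower by more, at 10.9 and 18.9 (log2 ratio −0.74, or −0.67 corrected). Insig1, which retains the SREBP complex and is itself an SREBP target, stood at −0.44 (−0.68 corrected for GC content). Nr1h3, the gene of LXRα, stood at −0.43 (−0.30 corrected). Cebpa, an adipogenic factor, was at −0.55, and Pparg was at 0.29, but corrected for GC content these were −0.30 and 0.06. Prkaa1 had the highest value of the list, at 14.8 against 7.05, which is 0.97 on the log2 scale, or 0.53 after correction for GC content. It encodes a catalytic subunit of AMPK, the kinase known to inactivate acetyl-CoA carboxylases by phosphorylation. Mlxipl, the gene of ChREBP, was barely detected, with 26 and 30 counts.

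Among genes that feed the pathway, 6 of 9 for citrate, acetyl-CoA and NADPH supply were below 0, beside 36.7% of expressed genes. The median of these 9 was −0.05. The lowest was Slc25a1, the mitochondrial citrate carrier that exports the substrate of Acly, with FPKM values of 48.6 and 71.3 (log2 ratio −0.54, or −0.30 corrected for GC content). Idh1, a cytosolic source of NADPH, was at −0.32 (−0.64 corrected), and Acss2, which makes acetyl-CoA from acetate, at −0.23 (−0.51 corrected). Pgd, a further NADPH source, was at −0.19, and Me1, another, at 0.17, which turned to −0.064 after correction for GC content.

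Paralogs and partners of the 10 genes were mixed, on a background of 36.7% of expressed genes below 0. Of 11 other elongases and subunits of the elongation complex, 6 were above and 5 below 0, with a median of 0.07 that turned to −0.05 when centred on the median gene and to −0.21 after correction for GC content. Tecr, the reductase of the last elongation step, was lowest (FPKM 40.2 and 56.9, log2 ratio −0.49), and Hsd17b12, which acts earlier in the cycle, was highest (59.8 and 42.8, log2 ratio 0.47, or 0.13 corrected). Of 6 other desaturases and electron donors, 3 were below 0, 2 above and Scd4 at 0 (median −0.01). Fads3, the third gene of the Fads cluster, was more abundant than Fads1 and Fads2, at 70.3 and 79.8, with a log2 ratio of −0.18. Cyb5r3, which passes electrons to desaturases through cytochrome b5, stood at −0.44. Cyb5a, cytochrome b5 itself, stood at 0.08, which turned to −0.050 when centred and −0.15 corrected for GC content. Scd4 had 11 and 15 counts, and Scd3 was not analysed here.

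Lists for the use of fatty acids, for mitochondrial synthesis and for cholesterol synthesis had medians between −0.31 and 0.20, beside 0.14 for expressed genes. Of the 11213 expressed genes, 7079 had a ratio above 0 and 4115 (36.7%) below 0, the background for the counts that follow. The 11 genes of glycerolipid assembly had a median log2 ratio of 0.05 (−0.08 centred on the median gene, −0.03 corrected for GC content), with Dgat1 (−0.52) and Lpin1 (0.51) at the ends. The 13 genes of fatty acid oxidation had a median of 0.08 (−0.05 under either correction), and 9 of them were above 0, among them Cpt1a (0.40), with Acadvl lowest (−0.56). Acyl-CoA synthetases were above 0 for 4 of 5 genes, led by Acsl5 (0.54, or 0.31 corrected for GC content) and Acsl4 (0.51, or 0.07), with a median of 0.17 (0.04 centred, −0.06 corrected for GC content). Uptake and binding proteins were below 0 for 5 of 8 genes (median −0.11), and mitochondrial fatty acid synthesis was above 0 for 5 of 6 (median 0.20, or −0.05 corrected for GC content). Of the cholesterol list, 14 of 17 genes that SREBP-2 is known to induce were below 0, with a median of −0.31, close to that of the 10 genes. Sqle, the squalene epoxidase of that route, had an FPKM of 2.55 against 4.73 (log2 ratio −0.69). None of the genes in these lists passed 2-fold with the added 1. By the plain ratio Cpt1b alone did, at 1.77 on the log2 scale, where 13.4% of all genes with a plain ratio were past 2-fold higher.

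**Figure D4:**
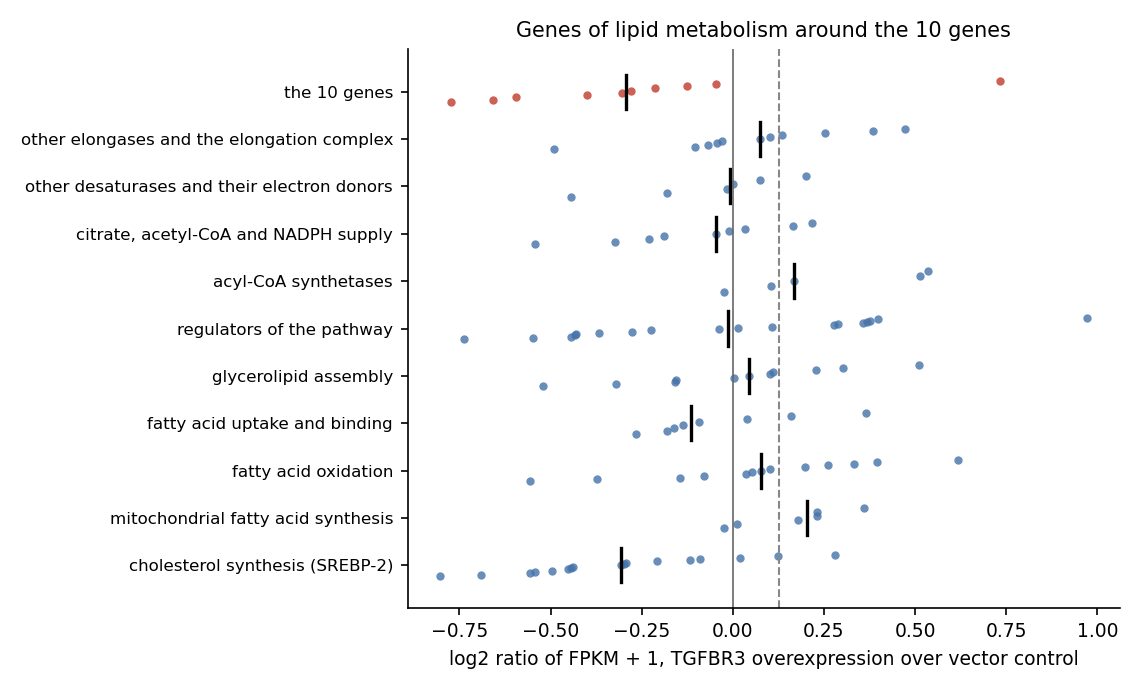
Ratio on the log2 scale of (FPKM + 1) in the TGFBR3-labelled over the vector-labelled library, for each of the 10 genes (red) and for genes of the lists around them (blue). Each point is a gene, short black bars are list medians, the solid line is 0 and the dashed line is the median gene (0.13). The 10 genes (median −0.29) and the cholesterol synthesis list (median −0.31) lie furthest to the left.

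Adipocyte markers were lower in the TGFBR3-labelled library, like 9 of the 10 lipogenic genes. All 7 that were measured had a ratio below 0, as did 36.7% of expressed genes, and the median of the 7 was −0.58. At least 2-fold lower were 3 of them (Cfd −1.29, Car3 −1.15 and Adipoq −1.07), against 0.526% of the 23590 genes with a count. Car3 had 31 counts in the TGFBR3-labelled library and 413 in the other. Fabp4 was closest to 0, at 12.6 against 13.9 (log2 ratio −0.14, or −0.52 corrected for GC content). The summed FPKM of the 7 markers was 35.8 in the TGFBR3-labelled library and 71.5 in the vector-labelled one. In bulk RNA, fewer cells turning into adipocytes and less RNA per such cell cannot be told apart, and the part of this shift in the values above was not tested. FAP markers were present in both libraries, with Pdgfra at 30.5 and 32.6, Ly6a at 1013 and 706 and Col1a1 at 467 and 870, while Lum was scarce (0.27 and 0.03). The 8 FAP markers had a median of −0.09, and Col3a1 was past 2-fold lower (−1.05). Markers of other cells were scarce, with a highest FPKM of 1.13 over 4 muscle genes, 1.09 over 5 endothelial genes and 0.46 over 6 macrophage genes, of which Adgre1 and Tyrobp had no counts. Of the 4 endothelial genes with a plain ratio, 2 were past 2-fold higher, against 13.4% of all such genes. Kdr was among them, with 262 counts in the TGFBR3-labelled library and 65 in the other. Cdh5 went the other way, with 165 and 328 counts.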

How the data were processed

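RNA-seq of 1 library per condition was used. According to the study's methods, trimmed reads were mapped to mm10 with STAR and counted with FeatureCounts, whereas the submitters' processing notes name cutadapt 1.9, HISAT2 2.2.1, StringTie 2.1.6, DESeq2 and edgeR; which produced the files is not settled. The authors deposited raw counts per gene and FPKM values rounded to 2 decimals. Libraries were compared by their log2 ratio of (FPKM + 1), with a threshold of 1 or −1. Plain ratios were taken from the counts, with 1 count worth 1.36 times as much FPKM in the TGFBR3-labelled library. A floor of 3 counts was used. Without molecular identifiers being stated, reads may not be independent molecules, and intervals cover counting error only. Count models need replicates and none was run, so no p-value is given. The calculations were tested on simulated counts. Coordinates, exon lengths and GC content came from GENCODE M21, which held 99.7% of the identifiers, and promoters from RefSeq (GRCm38.p6). The genes, gene lists and marker lists were chosen from general knowledge with earlier results of these data known. Named in the text are the 10 genes, Tgfbr3, pathway regulators, paralogs, and in each list up to 3 genes with the largest absolute ratios. Me1, Pgd, Cyb5a, Cpt1c, Pdgfra, Lum, Fabp4, Adgre1, Tyrobp and the pseudogene Gm5182 were added after values were seen. Elovl3, Scd3, Hsd17b8, Lep, Pax7, Myod1 and Myf5 were not analysed here. Some values of single genes in the lists are not reported here. Python 3.11.15, NumPy 2.4.6, pandas 2.3.3 and SciPy 1.17.1 were used.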

Additional observations from a re-analysis of the deposited data

How the results depend on the processing

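Over 8 alternatives each, no gene changed direction: 9 of the 10 stayed below 0 and Acacb above it, with Scd1 between −1.02 and −0.77 and Acacb between 0.48 and 1.51. Several of the alternatives could not have turned the 9 genes. A change of the pseudocount keeps the sign of a ratio, centring lowers every ratio by 0.13, and the size factors lowered the ratios too. The median of the 10 genes was −0.29. It was −0.36 without a pseudocount, −0.42 centred on the median gene, −0.34 by CPM, −0.53 with median-of-ratios size factors, −0.47 with the GC trend removed and −0.55 with the length trend removed. The number at least 2-fold higher went from 0 to 1 (Acacb) with a pseudocount of 0.1, without a pseudocount, by CPM and at a threshold of 1.5-fold. The number at least 2-fold lower went from 0 to 1 with a pseudocount of 0.1, without one and by CPM (Thrsp), and with size factors and the GC trend removed (Scd1), and was 3 at 1.5-fold. List medians moved with centring and with GC correction, in this order: other elongases, −0.052 and −0.21, desaturase partners, −0.13 and −0.15, supply, −0.17 and −0.17, acyl-CoA synthetases, 0.041 and −0.063, regulators, −0.14 and −0.090, glycerolipid assembly, −0.081 and −0.028, uptake, −0.24 when centred, oxidation, −0.048 and −0.055, mitochondrial synthesis, 0.078 and −0.055, and cholesterol synthesis, −0.55 with GC correction. Hence the sign of the medians for elongases, acyl-CoA synthetases, glycerolipid assembly, oxidation and mitochondrial synthesis turns under at least 1 of these corrections, and the cause was not tested. The GC correction of ratios between genes was added after the data were seen, and turned none of 6 such changes. With 1 library per condition no replicate could be left out. No paired analysis was possible because the result comes from no test and each group holds 1 library. Thrsp, at 4 counts, is the value most limited by depth.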
